A study of Homo sapiens with 12 samples.

Results

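The gene expression of SK-BR-3 breast cancer cells that had received only vehicle was set against that of MCF-10A breast epithelial cells that had received only vehicle. The comparison takes 6 of the 12 RNA-seq libraries of the study: 3 of SK-BR-3 and 3 of MCF-10A, all harvested after 16 hours in 0.07% DMSO. The other 6 libraries are of the same lines after 16 hours in 20 µM diallyl trisulfide (DATS), a garlic compound, and are used here only as a further set of libraries of each line. FPKM values are fragments per kilobase of exon, scaled to a size for each library. Genes with at least 1 FPKM in 3 of the 6 DMSO libraries were tested. These were 12366 of 58735 annotated genes, 10886 of them protein-coding. The labels state that samples were prepared 3 times independently. Each side of the comparison is 1 cell line, so that tumour state, donor, culture history and medium cannot be told apart. The medium is not given in the sources used here.

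SK-BR-3 is a cell line derived from the pleural fluid of a patient with metastatic breast cancer, and is widely used as a model of tumours with amplification of ERBB2, the receptor tyrosine kinase HER2. MCF-10A is an immortalized, non-tumorigenic line from the breast of another donor, described by the labels as normal epithelium. The ducts of the breast hold an inner layer of luminal cells, which express simple keratins and secretory genes. Around it lies an outer layer of basal or myoepithelial cells, which rest on the basement membrane through hemidesmosomes and depend on the transcription factor p63. Cells in culture can carry features of either layer. Genes that a tumour has amplified tend to be overexpressed together with their neighbours, and a gene can be silent because its DNA is gone or because its promoter is switched off; RNA levels alone do not separate these.

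The libraries held 15295046 to 17619720 reads in genes for SK-BR-3, against 16536482 to 18407213 for MCF-10A. Correlations of log2(FPKM + 1) were 0.982 to 0.994 within a line and 0.706 to 0.727 between the lines, and the first principal component, which separated the lines, held 93.5% of the variance. Within each line 1 library stood apart. Chi-square per degree of freedom, a measure of how far the counts of 2 libraries differ relative to counting noise, was 30.1 and 28.6 between SK-BR-3 library 1 and the others of its line and 8.26 between those others. It was 34 and 33.9 between MCF-10A library 3 and the others of its line and 4.53 between those. Many of the genes named are therefore given by library, and where leaving out both of these libraries moved the number of calls in a gene list by over 1.5 times, and by more than 1 gene, that number stands beside it. Mitochondrial transcripts took 6.39% to 6.47% of SK-BR-3 reads, against 4.90% to 5.22% of MCF-10A reads. The ranges did not overlap, and a two-sided exact permutation test gave p = 0.1, the smallest value that 3 against 3 libraries allow.

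At an adjusted p under 0.05 and at least a 2-fold difference on the log2(FPKM + 1) scale, 1884 genes were higher in SK-BR-3 and 1733 were lower, which is 15.2% and 14% of all tested genes. Without SK-BR-3 library 1 and MCF-10A library 3 the counts were 2016 and 1785. An adjusted p under 0.05 alone was met by 70.4% of the tested genes, and the FPKM ranges of the lines did not overlap for 74.3%. In the following, a gene is said to be called, or to have risen or fallen, only where it also differed at least 2-fold. The log2(FPKM + 1) scale understates the change of low genes. Of the tested genes, 1061 were below 1 FPKM in every SK-BR-3 library and 890 below 1 FPKM in every MCF-10A library. These entered the test through the other line alone and had to differ, so a list's counts describe it and are no support for a difference. Every list count that follows is to be read beside 15.2% higher and 14% lower of all tested genes. The median log2 fold change over all tested genes was 0.02. In a bulk culture, fewer cells that express a gene and less RNA per cell cannot be told apart. Where a gene had no read in any library of a line, its fold is given as a lower bound, computed with 3 reads over the 3 libraries of that line.

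**Figure D1:**
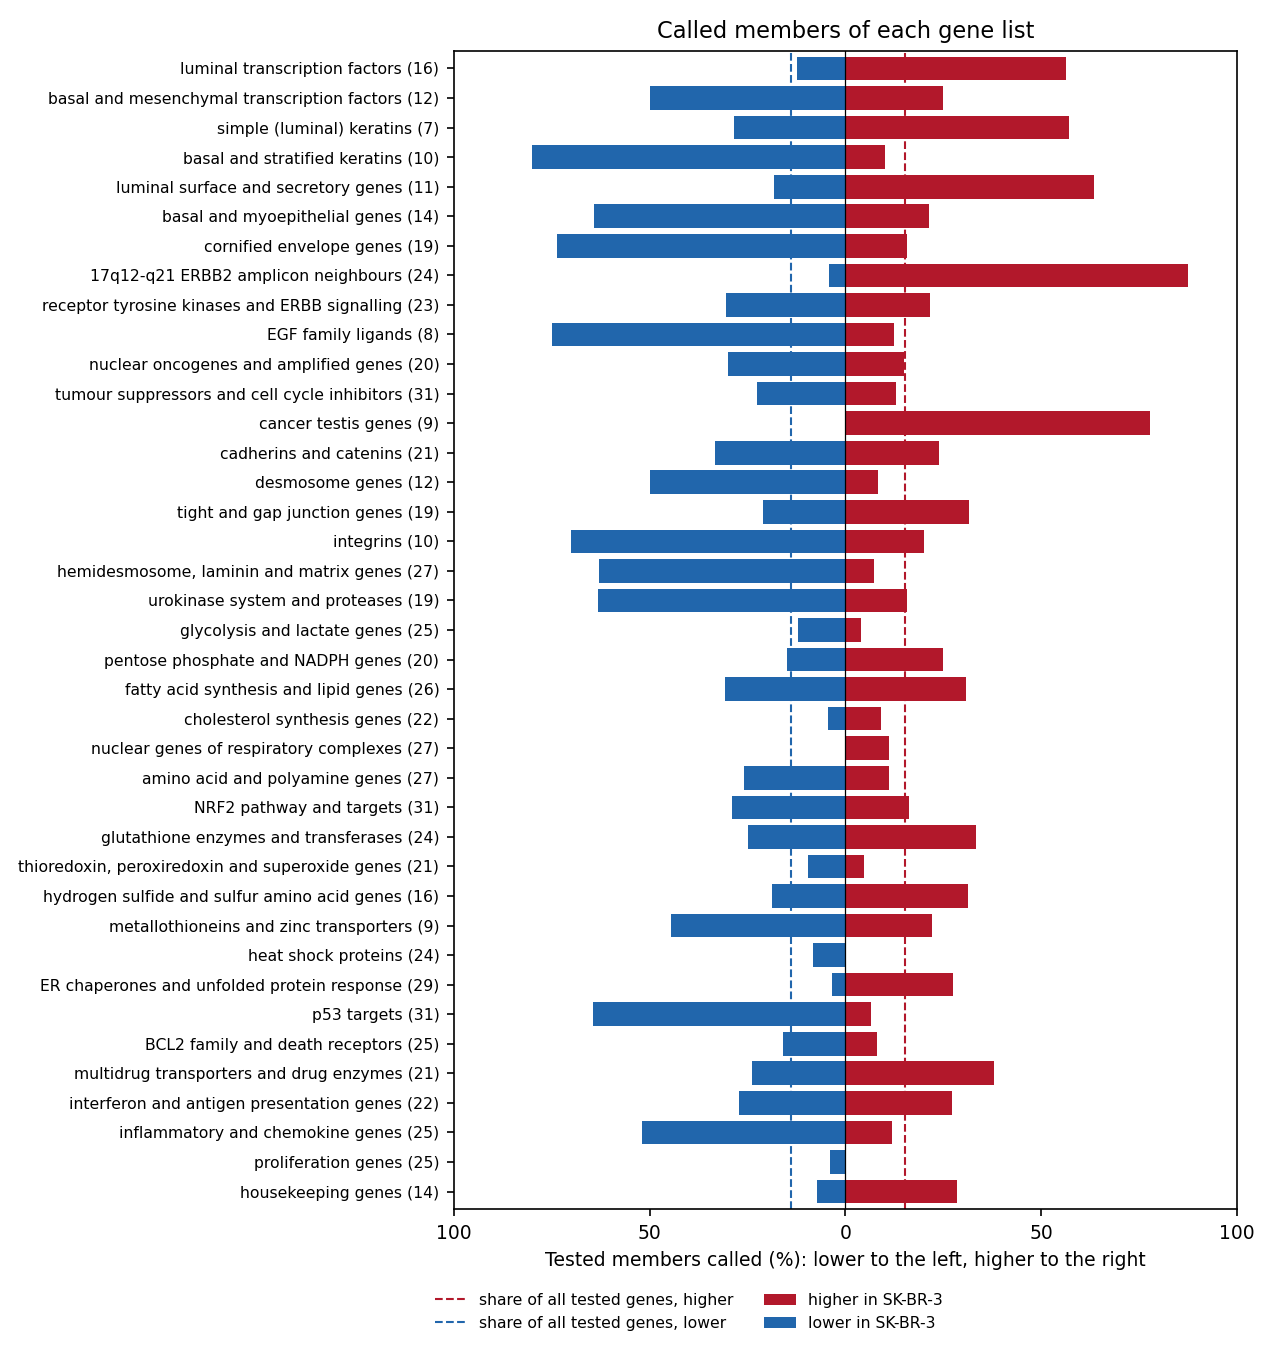
Share of the tested members that was called, for each gene list with at least 5 tested members, with bars to the right for members higher in SK-BR-3, bars to the left for members lower in SK-BR-3, and the number tested in parentheses. Dashed lines mark the shares over all 12366 tested genes, 15.2% higher and 14% lower. The bar for neighbours of ERBB2 reaches farthest to the right, with 21 of 24, and that for basal and stratified keratins farthest to the left, with 8 of 10.

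More luminal regulators rose than fell in SK-BR-3, and more basal regulators fell than rose. Of 21 luminal transcription factors and hormone receptors listed, 16 were tested, 9 rose and 2 fell, with a median log2 fold change of 2.01; 11 of the members reached 1 FPKM in all 6 libraries. SPDEF, an ETS factor of secretory epithelium, measured 57.8, 103 and 103 FPKM in SK-BR-3, against 0.0592, 0.0264 and 0.0585 in MCF-10A (log2 fold change 6.36, SE 0.22, adjusted p = 3.07e-07). SK-BR-3 library 1 was the lowest of its line for SPDEF, and all 3 were far above MCF-10A. TFAP2C, the AP-2 gamma factor of luminal cells that also binds the ERBB2 promoter, measured 154, 158 and 138 FPKM in SK-BR-3, against 7.62, 8.57 and 8.98 in MCF-10A (log2 fold change 4.01, SE 0.09, adjusted p = 6.77e-08).

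FOXA1, a factor that opens chromatin for steroid receptors, averaged 48.8 ± 4.74 FPKM in SK-BR-3 and 3.94 ± 0.935 FPKM in MCF-10A (SD, n = 3 each; log2 fold change 3.34, SE 0.14, adjusted p = 1.02e-06). ELF3, an epithelial ETS factor, averaged 72.9 ± 2.75 FPKM in SK-BR-3 and 2.77 ± 0.706 FPKM in MCF-10A (log2 fold change 4.31). GRHL2, a factor that maintains epithelial junctions, had no read in MCF-10A and measured 7.07, 5.68 and 6.43 FPKM in SK-BR-3, at least 711-fold higher. GATA3, the other central luminal factor, was not called: it measured 5.14, 7 and 8.15 FPKM in SK-BR-3, against 5.38, 4.97 and 5.28 in MCF-10A (log2 fold change 0.30, SE 0.15, adjusted p = 0.0993), and the ranges overlapped. ESR1, the estrogen receptor, was below the testing threshold in both lines, at 0.0329 ± 0.0351 FPKM in SK-BR-3 against 0.0797 ± 0.0346 in MCF-10A. EHF and GRHL3 were the members that fell. EHF measured 1.18, 0.738 and 0.97 FPKM in SK-BR-3, against 5, 5.24 and 1.98 in MCF-10A. GRHL3 measured 2.43, 4.03 and 4.68 FPKM in SK-BR-3, against 16.9, 14.8 and 19 in MCF-10A.

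Among 20 basal and mesenchymal transcription factors, 12 were tested, 6 fell and 3 rose. TP63, which encodes p63, measured 0.0357, 0.00819 and 0.00828 FPKM in SK-BR-3, against 23.7, 24.8 and 16.8 in MCF-10A (log2 fold change -4.46, SE 0.14, adjusted p = 2.56e-07). IRX4, a homeobox factor of the basal layer, had no read in SK-BR-3 and measured 25.9, 25.1 and 27.6 FPKM in MCF-10A, at least 1168-fold lower in SK-BR-3. SNAI2, TWIST1 and TWIST2, factors linked to epithelial-mesenchymal transition, were at or near 0 in SK-BR-3, where SNAI2 had 2 reads, TWIST1 1 and TWIST2 0 over the 3 libraries. In MCF-10A SNAI2 averaged 15 ± 2.76 FPKM, TWIST1 6.55 ± 0.443 FPKM and TWIST2 12 ± 1.7 FPKM. Another 3 rose. SNAI1, of the same family as SNAI2, averaged 4 ± 0.656 FPKM in SK-BR-3 against 0.303 ± 0.14 in MCF-10A. The homeobox gene MSX2 averaged 22 ± 2.14 FPKM in SK-BR-3 against 3.29 ± 0.581 in MCF-10A, and TCF7L1, a repressor of WNT target genes, 9.93 ± 1.13 FPKM in SK-BR-3 against 1.09 ± 0.339 in MCF-10A.

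Keratins, the intermediate filaments that mark epithelial layers, were among the genes that differed most. KRT19, a simple keratin of luminal cells, measured 1528, 2677 and 2223 FPKM in SK-BR-3, against 0.0243, 0.0433 and 0.0719 in MCF-10A, with 6 reads in all of MCF-10A (log2 fold change 10.96, SE 0.19, adjusted p = 2.42e-08). KRT8 measured 1050.4, 1519 and 1368 FPKM in SK-BR-3, against 49.5, 41.8 and 46 in MCF-10A (log2 fold change 4.80). Its filament partner KRT18 averaged 1113 ± 183 FPKM in SK-BR-3 and 61.4 ± 7.25 FPKM in MCF-10A (log2 fold change 4.15). Both were abundant in SK-BR-3 and present in MCF-10A, unlike KRT19. KRT7 was not called and its ranges overlapped, at 739, 815 and 744 FPKM in SK-BR-3, against 669, 642 and 891 in MCF-10A. KRT81, a hair keratin, went the other way, at 154, 223 and 147 FPKM in SK-BR-3, against 4783, 4419 and 6178 in MCF-10A (log2 fold change -4.88, SE 0.20, adjusted p = 8.31e-07). Its near copy KRT86 also fell, and reads of the pair may have been divided by the counting. The list of simple keratins also held the hair keratin KRT81. Of its 7 tested members of 9 listed, 4 rose and 2 fell, KRT81 being 1 of those that fell.

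Of 12 basal and stratified keratins, 10 were tested, 8 fell and 1 rose, the exception being KRT4, a keratin of moist stratified epithelium, at 57, 121 and 133 FPKM in SK-BR-3, against 2.41, 0.703 and 1.86 in MCF-10A. KRT14 measured 0.146, 0.134 and 0.0541 FPKM in SK-BR-3, against 1619.7, 1472 and 1530.3 in MCF-10A (log2 fold change -10.44, SE 0.08, adjusted p = 2.47e-09). Its partner in basal cells, KRT5, measured 0.481, 0.327 and 0.129 FPKM in SK-BR-3, against 1098, 917 and 922 in MCF-10A (log2 fold change -9.55). KRT17 measured 10.6, 6.4 and 7.25 FPKM in SK-BR-3, against 1479.8, 1319 and 2135 in MCF-10A. KRT6A, whose reads are hard to separate from those of KRT6B and KRT6C, had 1 read in SK-BR-3 and measured 764, 698 and 1176 FPKM in MCF-10A. KRT14, KRT16, KRT17 and KRT19 lie within 2 Mb of ERBB2 on chromosome 17, so the neighbourhood that held the rise of KRT19 also held these falls.

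**Figure D2:**
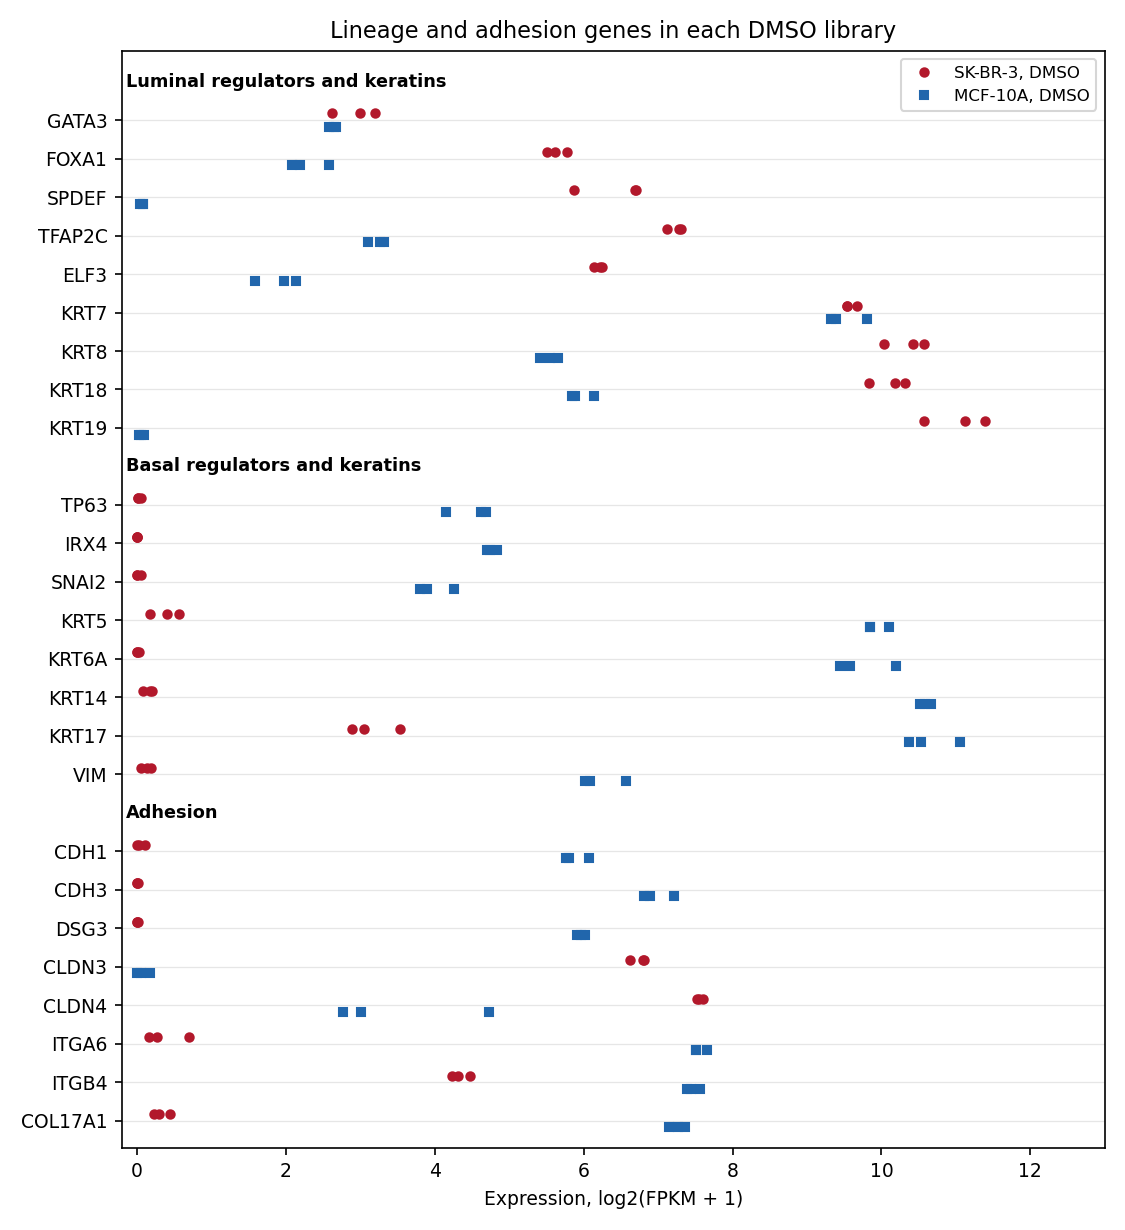
Level of lineage and adhesion genes as log2(FPKM + 1) on the horizontal axis, 1 symbol per library, with SK-BR-3 (circles) above MCF-10A (squares) in each row. KRT19 and SPDEF lie at the top of their range in SK-BR-3 and near 0 in MCF-10A, KRT14 and CDH3 the reverse, and GATA3 and KRT7 overlap.

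Luminal surface and secretory genes gave 7 rises and 2 falls among 11 tested of 22 listed; 3 rose among genes of at least 5 FPKM in 3 of 6 libraries. EPCAM, a surface glycoprotein of simple epithelium, averaged 112 ± 17.2 FPKM in SK-BR-3 and 17.1 ± 2.36 FPKM in MCF-10A (log2 fold change 2.64). STARD10, a phospholipid transfer protein, measured 64.8, 112 and 114 FPKM in SK-BR-3, against 3.5, 3.68 and 5.02 in MCF-10A (log2 fold change 4.24). AGR2, a disulfide isomerase of mucus-producing cells, measured 11.4, 31.5 and 36 FPKM in SK-BR-3, against 0.12, 0.0356 and 0.197 in MCF-10A, with SK-BR-3 library 1 at less than the others of its line. MUC1, the membrane mucin of luminal cells, fell, at 3.46, 4.85 and 6.24 FPKM in SK-BR-3, against 17.2, 14.4 and 22.5 in MCF-10A (log2 fold change -1.71, SE 0.21, adjusted p = 0.000239). CD24 was not called, at 399.8, 485 and 482 FPKM in SK-BR-3, against 396, 349 and 632 in MCF-10A. Of the luminal markers named for this comparison, 6 of 8 rose and 1 fell, the remaining 1 being GATA3. All 8 of the basal markers fell and all 5 of the HER2 markers rose. KRT5, KRT14, TP63, VIM and LAMA3 were below 1 FPKM in every SK-BR-3 library, and KRT19 and SPDEF in every MCF-10A library. These entered the test through the other line alone and had to differ. Markers were chosen with earlier results of these data known, so the counts are a description and no support.

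Of 21 basal and myoepithelial structural genes listed, 14 were tested, 9 fell, 3 rose and 2 were not called; none rose among genes of at least 5 FPKM in 3 of 6 libraries. VIM, the mesenchymal intermediate filament, measured 0.142, 0.0947 and 0.0359 FPKM in SK-BR-3, against 63.6, 66.7 and 93.6 in MCF-10A (log2 fold change -6.10, SE 0.15, adjusted p = 8.29e-08). S100A2, a calcium-binding protein of basal keratinocytes, measured 1.61, 1.71 and 0.984 FPKM in SK-BR-3, against 1544, 1597 and 2550.2 in MCF-10A (log2 fold change -9.58). CD44, the hyaluronan receptor, averaged 1.08 ± 0.33 FPKM in SK-BR-3 against 43.4 ± 2.75 in MCF-10A (log2 fold change -4.43). The caveolin CAV1 averaged 12.9 ± 0.961 FPKM in SK-BR-3 against 155 ± 3.09 in MCF-10A (log2 fold change -3.49). ACTA2, ACTG2 and OXTR, the smooth muscle actins and the oxytocin receptor of contractile myoepithelium, were the members that rose. ACTA2 averaged 5 ± 1.85 FPKM in SK-BR-3 against 0.98 ± 0.0794 in MCF-10A, ACTG2 4.57 ± 1.45 FPKM in SK-BR-3 against 0.209 ± 0.0431 in MCF-10A and OXTR 3.45 ± 1.27 FPKM in SK-BR-3 against 0.27 ± 0.109 in MCF-10A, all low levels.

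Genes of the cornified envelope, the barrier of stratified squamous epithelium, were mostly lower in SK-BR-3, with 14 of 19 lower (8 among genes of at least 5 FPKM in 3 of 6 libraries) and 3 higher; 7 of the 19 reached 1 FPKM in all 6 libraries. SERPINB5 (maspin), a serpin of basal cells, had 7 reads in SK-BR-3 and averaged 182 ± 36.6 FPKM in MCF-10A. SPRR1B, a small proline-rich crosslinked protein, had 1 read in SK-BR-3 and measured 37.6, 56.7 and 92.8 FPKM in MCF-10A. IVL (involucrin) rose, at 82.1, 61.7 and 60.4 FPKM in SK-BR-3, against 2.84, 4.51 and 18 in MCF-10A. The calprotectin pair rose too, S100A8 at 148 ± 11.9 FPKM in SK-BR-3 against 59.5 ± 17.5 in MCF-10A and S100A9 at 1385 ± 193 FPKM in SK-BR-3 against 164 ± 41.7 in MCF-10A. MCF-10A library 3 was above the others of its line for IVL, SPRR1B and SERPINB2, and below SK-BR-3 for IVL in every library.

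ERBB2 and its neighbours on 17q were higher in SK-BR-3 as a group. ERBB2 itself measured 517, 494 and 469.7 FPKM in SK-BR-3, against 8.6, 8.26 and 7.91 in MCF-10A, 59.7 times as much on average (log2 fold change 5.74, SE 0.08, adjusted p = 9.63e-09). Of 30 genes listed for the 17q12-q21 amplicon, 24 were tested, 21 rose and 1 fell; 20 reached 1 FPKM in all 6 libraries, and the median log2 fold change was 2.64. The same counts were found without SK-BR-3 library 1 and MCF-10A library 3. The list had been compiled around a known amplicon.

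GRB7, an adaptor that binds ERBB2 and lies next to it, measured 180.0, 166 and 168 FPKM in SK-BR-3, against 5.06, 5.38 and 4.92 in MCF-10A (log2 fold change 4.82). GSDMB, a gasdermin that can form membrane pores, measured 71.8, 85.7 and 83.1 FPKM in SK-BR-3, against 0.288, 0.412 and 0.275 in MCF-10A (log2 fold change 5.93). These levels were close to each other among the libraries of a line. STARD3, a cholesterol transporter of endosomes, averaged 97.8 ± 4.67 FPKM in SK-BR-3 and 6.76 ± 0.786 FPKM in MCF-10A. CDK12, a kinase of RNA polymerase II, averaged 54.9 ± 0.902 FPKM in SK-BR-3 and 5.81 ± 0.23 FPKM in MCF-10A. RARA, the retinoic acid receptor alpha, averaged 35.3 ± 4.06 FPKM in SK-BR-3 and 2.87 ± 0.522 FPKM in MCF-10A. RPL19, a ribosomal protein gene in the same stretch that was chosen after its values were seen, measured 7129.9, 8912 and 8049 FPKM in SK-BR-3, against 569, 528 and 641 in MCF-10A. The gene spans of PGAP3 and MIEN1 overlap that of ERBB2 in the annotation, so their reads may not be fully separable.

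The stretch was the highest-ranked window of 25 neighbouring genes, so its ends were set by the values and are a description. From CACNB1 to RARA, 39173456 to 40357643 on chromosome 17 of GRCh38, 23 of 25 tested protein-coding genes rose, with log2 fold changes up to 5.93. Of the 9 tested genes within 1.1 Mb of ERBB2 on the centromeric side of CACNB1, none rose and 1 fell, with log2 fold changes of at most 0.57. Beyond RARA, TOP2A, the topoisomerase often co-amplified with ERBB2 in tumours, was not called, at 94.8, 82.9 and 91.5 FPKM in SK-BR-3, against 64.1, 58.7 and 41.9 in MCF-10A (log2 fold change 0.72, SE 0.16, adjusted p = 0.00484). TNS4, a tensin of focal adhesions, fell, at 43.6, 18.7 and 21 FPKM in SK-BR-3, against 148, 154 and 139 in MCF-10A. A second run of rises followed from EIF1 to STAT3, with starts 2.001 to 2.625 Mb from that of ERBB2. Its ends too were set by the values, so its counts are a description. In it 15 of 18 tested genes rose and none fell, beside 15.2% higher and 14% lower of all tested genes. The log2 fold changes reached 2.44. Within the stretch from CACNB1 to RARA, CSF3, the granulocyte colony-stimulating factor, fell, at 0.03, 0.055 and 0 FPKM in SK-BR-3, against 12.6, 36.5 and 33.5 in MCF-10A. RAPGEFL1 was not called, at 15.6, 10.6 and 10.1 FPKM in SK-BR-3, against 12.2, 10.8 and 7.45 in MCF-10A.

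**Figure D3:**
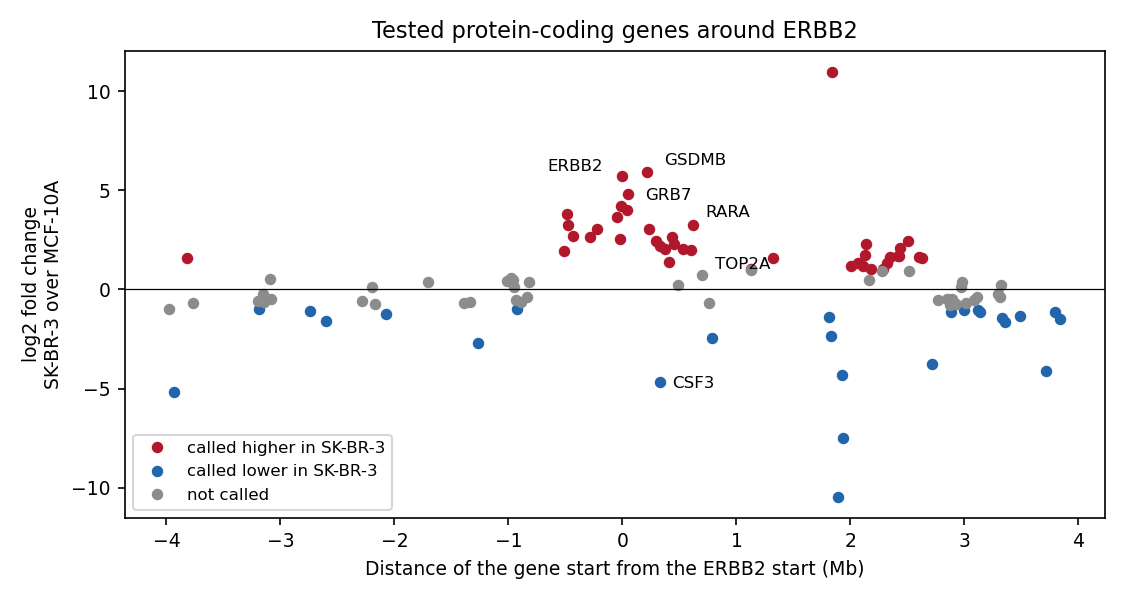
Log2 fold change, SK-BR-3 over MCF-10A, of tested protein-coding genes within 4 Mb of ERBB2, by the distance of each gene's start from that of ERBB2 in Mb. Red points were called higher, blue lower and grey neither; 23 of the 25 genes from CACNB1 to RARA are red, and CSF3 is the blue point among them.

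Other receptors and their ligands differed in both directions. Of 23 tested receptor tyrosine kinase and ERBB signalling genes of 29 listed, 5 rose and 7 fell. Over all tested genes 15.2% were higher and 14% lower. ERBB3, the partner with which ERBB2 signals most strongly, averaged 19.2 ± 0.89 FPKM in SK-BR-3 and 2.58 ± 0.173 FPKM in MCF-10A. EGFR was not called at 2-fold, at 19.1, 14.4 and 14.8 FPKM in SK-BR-3, against 28.8, 30.05 and 20.9 in MCF-10A (log2 fold change -0.68, SE 0.16, adjusted p = 0.007). All 3 SK-BR-3 libraries were below MCF-10A for it. AXL, a TAM-family receptor of mesenchymal cells, fell, at 0.0467 ± 0.0614 FPKM in SK-BR-3 against 17 ± 2.78 in MCF-10A. MET, the receptor of hepatocyte growth factor, fell, at 4.67 ± 0.633 FPKM in SK-BR-3 against 18 ± 1.3 in MCF-10A. SHC1, an adaptor of receptor signalling, fell, at 23.7 ± 0.957 FPKM in SK-BR-3 against 142 ± 4.04 in MCF-10A. FGFR4 was higher, at 3.92, 6.45 and 6.4 FPKM in SK-BR-3, against 0.364, 0.377 and 0.267 in MCF-10A.

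Of 10 EGF-family ligands, 8 were tested, 6 fell and 1 rose. AREG (amphiregulin) measured 0.525, 0.518 and 0.524 FPKM in SK-BR-3, against 125, 156 and 213 in MCF-10A (log2 fold change -6.73, SE 0.18, adjusted p = 1.14e-07). EPGN (epigen) averaged 0.254 ± 0.0458 FPKM in SK-BR-3 against 27.6 ± 2.62 in MCF-10A, and EREG (epiregulin) 0.0402 ± 0.0115 FPKM in SK-BR-3 against 5.23 ± 0.89 in MCF-10A. TGFA had 3 reads in SK-BR-3 and measured 9.73, 13.4 and 21 FPKM in MCF-10A. EGF itself was the member that rose, at 2.16 ± 0.183 FPKM in SK-BR-3 against 0.055 ± 0.0483 in MCF-10A. Only 1 of these ligands reached 1 FPKM in all 6 libraries, so most were tested through 1 line alone.

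Of 20 tested nuclear oncogenes and genes known to be amplified, 3 rose and 6 fell, beside 15.2% and 14% of all tested genes. MYC was not called and its ranges overlapped, at 85.6, 91.8 and 59.3 FPKM in SK-BR-3, against 80.6, 78.3 and 88.8 in MCF-10A (log2 fold change -0.09, SE 0.17, adjusted p = 0.656). SK-BR-3 library 3 was the lowest of the 6. CCND1 (cyclin D1) was not called, at 77.5, 61 and 58.1 FPKM in SK-BR-3, against 40.6, 44.7 and 63.7 in MCF-10A. CCND2 had 0 reads in SK-BR-3 and measured 4.77, 4.46 and 9.38 FPKM in MCF-10A. The 3 that rose lie on chromosome 20. ZNF217, a transcription factor, averaged 61 ± 10.2 FPKM in SK-BR-3 against 7.73 ± 0.945 in MCF-10A, and EEF1A2, a translation elongation factor, 21.8 ± 2.12 FPKM in SK-BR-3 against 0.395 ± 0.0429 in MCF-10A. BCAS1 measured 60.8, 56.2 and 51.2 FPKM in SK-BR-3, against 0 FPKM in all 3 libraries of MCF-10A, at least 8439-fold higher in SK-BR-3.

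Windows of 25 neighbouring tested protein-coding genes were used to see whether such stretches occurred elsewhere. Over 10316 overlapping windows the median log2 fold change had a 5th percentile of -0.77 and a 95th percentile of 0.85. After the ERBB2 stretch, at 2.65, the highest windows lay on chromosome 17 from TMC6 to RNF213 (1.69), on chromosome 8 from EXT1 to TRMT12 (1.61), on chromosome 20 from CEBPB to PMEPA1 (1.58) and on chromosome 7 from MDFIC to METTL2B (1.45). The lowest lay on chromosome 5 from KIF3A to SMAD5 (-1.58) and on chromosome 1 from B3GALNT2 to AHCTF1 (-1.52), where 20 and 18 of 25 genes fell and none rose. By whole chromosome the medians ran from -0.59 on chromosome 18, with 5 genes higher and 44 lower, to 0.65 on chromosome 20, with 107 higher and 24 lower. Copy number was not measured in these libraries, and neighbouring windows share genes.

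**Figure D4:**
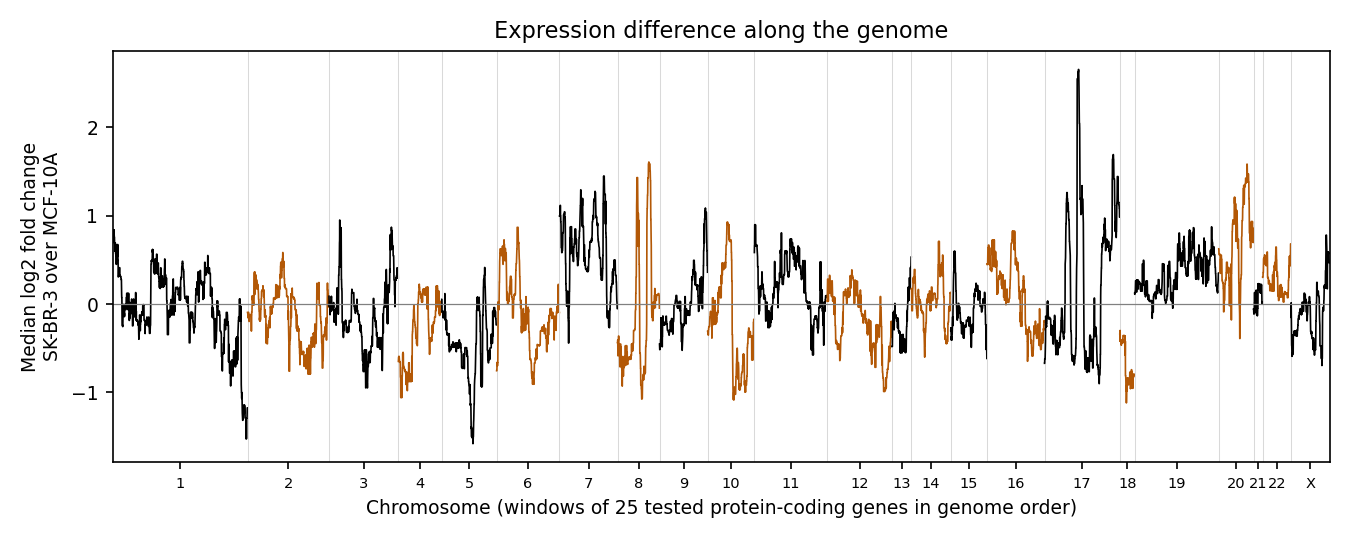
Median log2 fold change, SK-BR-3 over MCF-10A, in windows of 25 tested protein-coding genes moved 1 gene at a time in genome order, with chromosomes alternating in colour. The tallest peak, at 2.65, is the ERBB2 stretch on chromosome 17, and the deepest trough, at -1.58, lies on chromosome 5.

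Tumour suppressors and cell cycle inhibitors, 31 tested of 32 listed, gave 4 rises and 7 falls, beside 15.2% and 14% of all tested genes. CDKN2A, CDKN2B, CDKN2C and MTAP were higher, and RB1, CDKN1A, CDKN1C, CDH1, SMAD4, BRCA1 and TGFBR2 were lower. At 9p21, CDKN2A, which encodes p16 and p14ARF, measured 14, 16 and 17.1 FPKM in SK-BR-3, against 0 FPKM in all 3 libraries of MCF-10A, at least 1254-fold higher. Its neighbour CDKN2B, the p15 inhibitor, measured 18.8, 15.7 and 17.2 FPKM in SK-BR-3, against 0 FPKM in all 3 libraries of MCF-10A, at least 1285-fold higher. MTAP, the methylthioadenosine phosphorylase next to them, averaged 3.12 ± 0.392 FPKM in SK-BR-3 and had 4 reads in MCF-10A. DMRTA1, farther out, had reads in both lines, at 0.154 ± 0.0287 FPKM in SK-BR-3 against 0.292 ± 0.0557 in MCF-10A. CDKN2A, CDKN2B and MTAP, at or near 0 in MCF-10A, span 21802543 to 22009363 on chromosome 9 of GRCh38.

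The reverse held at 16q22. CDH1, the gene of E-cadherin, measured 0.0755, 0 and 0.02 FPKM in SK-BR-3, against 55, 53.2 and 66.4 in MCF-10A, with 9 reads in SK-BR-3 (log2 fold change -5.84, SE 0.10, adjusted p = 2.59e-08). The adjacent CDH3, the P-cadherin of basal cells, measured 0, 0.00979 and 0 FPKM in SK-BR-3, against 111, 118 and 147 in MCF-10A. The genes on either side had reads in both lines and fell too, with log2 fold changes of -1.15 for ZFP90 and -1.47 for TANGO6. ZFP90 measured 1.12, 1.04 and 1.05 FPKM in SK-BR-3, against 4.11, 4.05 and 2.71 in MCF-10A, and TANGO6 averaged 0.661 ± 0.1 FPKM in SK-BR-3 against 3.62 ± 0.232 in MCF-10A. These flanking genes, and those of 9p21, were chosen after their values were seen.

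RB1, the retinoblastoma protein gene, fell, at 6.37 ± 0.167 FPKM in SK-BR-3 against 18.8 ± 0.512 in MCF-10A. The TGF-beta receptor TGFBR2 fell, at 4.81, 3.3 and 3.3 FPKM in SK-BR-3, against 33.5, 37.6 and 40.9 in MCF-10A. CDKN1A, the p21 inhibitor induced by p53, fell, at 13.4, 15.1 and 11.8 FPKM in SK-BR-3, against 88.4, 92.5 and 176 in MCF-10A.

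Genes that were abundant in 1 line and at the floor in the other were counted without a test. With at most 3 reads over a line and at least 5 FPKM in each library of the other line, 64 genes were at the floor in SK-BR-3 and 78 in MCF-10A, 56 of each being protein-coding. At 20 FPKM the numbers were 18 and 23. Among the genes silent in SK-BR-3, HTRA1, a secreted serine protease, had 0 reads in SK-BR-3 and measured 70.9, 74.7 and 79.5 FPKM in MCF-10A. FGFBP1, a carrier of fibroblast growth factors, had 1 read in SK-BR-3 and averaged 142 ± 15 FPKM in MCF-10A. SFRP1, a secreted inhibitor of WNT signalling often silenced in breast cancer, had 3 reads in SK-BR-3 and averaged 93.3 ± 11.6 FPKM in MCF-10A. SPINK6, a protease inhibitor of skin, had 0 reads in SK-BR-3 and measured 43.2, 41.4 and 214 FPKM in MCF-10A, of which library 3 was the highest.

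Among the genes silent in MCF-10A, FBLN2 (fibulin 2) measured 96.4, 93.5 and 106 FPKM in SK-BR-3 and had 0 reads in MCF-10A. EFHD1, a mitochondrial calcium sensor, measured 71.6, 83.8 and 82.3 FPKM in SK-BR-3 and had 0 reads in MCF-10A. UCP2, a mitochondrial carrier, averaged 77.1 ± 4.6 FPKM in SK-BR-3 and had 3 reads in MCF-10A. IGFBP5, an IGF-binding protein, measured 51.9, 113 and 151 FPKM in SK-BR-3, library 1 being the lowest, and had 1 read in MCF-10A. INHBB, the activin beta B subunit, averaged 90.2 ± 9.81 FPKM in SK-BR-3 and had 2 reads in MCF-10A.

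Some of the genes at the floor were neighbours. Runs were sought among protein-coding genes with at least 1 FPKM in each library of the other line. Genes outside this set were skipped, so a run need not be an unbroken stretch. Runs of at least 3 such genes with at most 3 reads in SK-BR-3 were found at several places. They lay in the HOXA cluster on chromosome 7 (6 genes), in a cluster of zinc finger genes on chromosome 19 (6 genes), and at the SPRR genes on chromosome 1 (4 genes). Others lay at AKR1C2, AKR1C3 and TUBAL3, KLK5, KLK7 and KLK10, and IL1A, IL1B and IL36G (3 genes each). HOXA5, a homeobox gene of positional identity, had 0 reads in SK-BR-3 and measured 11, 9.34 and 7.9 FPKM in MCF-10A. In MCF-10A the runs included the chemokine genes CCL22, CX3CL1 and CCL17 on chromosome 16, and the 5 genes from MAGEA3 to MAGEA6 on chromosome X.

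A list of cancer testis genes, normally restricted to the germ line, and of relatives without that restriction gave 7 rises and no falls among 9 tested of 20 listed. The 7 that rose had no read in MCF-10A and were tested through SK-BR-3 alone. MAGED1 and MAGED2, the relatives among those tested, reached 1 FPKM in all 6 libraries and were not called. CTAG2 measured 118, 171 and 156 FPKM in SK-BR-3, against 0 FPKM in all 3 libraries of MCF-10A, at least 2733-fold higher. MAGEA3 measured 75.4, 84.6 and 74.7 FPKM in SK-BR-3, against 0 FPKM in all 3 libraries of MCF-10A, at least 2579.5-fold higher. MAGEA6 averaged 64.8 ± 5.32 FPKM and MAGEA12 19.5 ± 2.35 FPKM in SK-BR-3, with 0 and 0 reads in MCF-10A. These genes have near-identical copies, between which reads may have been divided.

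Cell adhesion genes differed by class. Of 21 tested cadherin and catenin genes, 5 rose and 7 fell, beside 15.2% and 14% of all tested genes. Beside CDH1 and CDH3, N-cadherin (CDH2) averaged 0.0248 ± 0.0249 FPKM in SK-BR-3 against 3.91 ± 0.638 in MCF-10A. FAT2, a giant protocadherin of stratified epithelium, measured 0.0779, 0.0756 and 0.0679 FPKM in SK-BR-3, against 23.4, 23.4 and 9.44 in MCF-10A, with MCF-10A library 3 the lowest of its line. CDH5, the cadherin of endothelium, rose, at 15.1, 10.7 and 9.75 FPKM in SK-BR-3, against 0 FPKM in all 3 libraries of MCF-10A, at least 1317-fold higher. The catenins that link cadherins to actin were expressed in both lines and were not called. CTNNA1 averaged 115 ± 4.78 FPKM in SK-BR-3 against 84.6 ± 3.5 in MCF-10A, and CTNNB1 14.3 ± 0.737 FPKM in SK-BR-3 against 26.5 ± 1.8 in MCF-10A. CTNND1, which stabilizes cadherins at the surface, averaged 40.5 ± 3.29 FPKM in SK-BR-3 against 36.1 ± 1.98 in MCF-10A. JUP (plakoglobin), which lies on chromosome 17, rose, at 373 ± 27.3 FPKM in SK-BR-3 against 148 ± 22 in MCF-10A.

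Desmosomes, the spot junctions that anchor keratins, gave 6 falls and 1 rise of 12 tested. DSG3, a basal desmosomal cadherin, averaged 0.00372 ± 0.00645 FPKM in SK-BR-3 against 61.5 ± 2.55 in MCF-10A, and DSC3, another, 0.113 ± 0.0093 FPKM in SK-BR-3 against 40.6 ± 5.42 in MCF-10A. DSP (desmoplakin) averaged 17.6 ± 1.87 FPKM in SK-BR-3 and 99.8 ± 7.96 FPKM in MCF-10A. DSG2, the widely expressed desmoglein, fell, at 21.1 ± 3.12 FPKM in SK-BR-3 against 47.9 ± 4.42 in MCF-10A, and DSC2 was not called, at 10.2 ± 0.539 FPKM in SK-BR-3 against 12.6 ± 2.01 in MCF-10A. The plakin EVPL was the member that rose, at 32.5 ± 2.53 FPKM in SK-BR-3 against 12.2 ± 0.284 in MCF-10A.

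At tight and gap junctions, 6 of 19 tested rose and 4 fell. CLDN3 measured 97.6, 111 and 112 FPKM in SK-BR-3, against 0.134, 0.0397 and 0 in MCF-10A (log2 fold change 6.67, SE 0.09, adjusted p = 9.63e-09). CLDN4 measured 186, 193 and 183 FPKM in SK-BR-3, against 5.79, 7.07 and 25.5 in MCF-10A (log2 fold change 4.05), with MCF-10A library 3 above the others of its line. CLDN1 fell, at 10.5, 7.35 and 8.18 FPKM in SK-BR-3, against 27.8, 34.8 and 57.4 in MCF-10A. The gap junction genes GJB2 and GJB5, of stratified epithelium, also fell. GJB2 averaged 0.201 ± 0.122 FPKM in SK-BR-3 against 14.3 ± 4.26 in MCF-10A, and GJB5 1.23 ± 0.248 FPKM in SK-BR-3 against 32.2 ± 6.95 in MCF-10A.

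Genes of adhesion to the basement membrane were mostly lower in SK-BR-3. Of 10 tested integrins, 7 fell and 2 rose, and of 27 tested hemidesmosome, laminin and matrix genes, 17 fell and 2 rose; 14 of the second group reached 1 FPKM in all 6 libraries. ITGA6, the alpha chain of the hemidesmosomal laminin receptor, measured 0.622, 0.206 and 0.123 FPKM in SK-BR-3, against 182, 201 and 181 in MCF-10A (log2 fold change -7.18, SE 0.14, adjusted p = 3.88e-08). Its partner ITGB4 averaged 19.2 ± 1.73 FPKM in SK-BR-3 and 176 ± 11.5 FPKM in MCF-10A (log2 fold change -3.13). LAMA3 and LAMB3, which encode chains of laminin 332, the ligand of that receptor, fell. LAMA3 averaged 0.819 ± 0.0972 FPKM in SK-BR-3 against 63.5 ± 17.8 in MCF-10A. LAMB3 measured 19.1, 11.4 and 12.8 FPKM in SK-BR-3, against 219, 293 and 451 in MCF-10A.

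COL17A1, the transmembrane collagen of hemidesmosomes, measured 0.358, 0.173 and 0.227 FPKM in SK-BR-3, against 141, 154 and 164 in MCF-10A (log2 fold change -6.94). ITGB1, shared by many integrins, averaged 19.3 ± 0.647 FPKM in SK-BR-3 and 184 ± 10.8 FPKM in MCF-10A. The members that rose were ITGB5 and ITGB6, partners of the alpha V chain, and BCAM and FN1. ITGB5 averaged 36.6 ± 6.47 FPKM in SK-BR-3 against 14.5 ± 1.63 in MCF-10A. ITGB6 measured 77.6, 49.6 and 46.5 FPKM in SK-BR-3, against 8.41, 9.74 and 16.3 in MCF-10A. BCAM, a receptor of laminin alpha 5, measured 147, 154 and 164 FPKM in SK-BR-3, against 7.23, 5.09 and 3.49 in MCF-10A. FN1 (fibronectin) measured 41, 31.4 and 27 FPKM in SK-BR-3, against 9.93, 11.7 and 20.9 in MCF-10A. LAMA5, LAMB1 and AGRN were not called.

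Among urokinase system and protease genes, 12 of 19 tested fell and 3 rose. MMP14, the membrane-type matrix metalloproteinase, averaged 0.0733 ± 0.0938 FPKM in SK-BR-3 and 78.3 ± 11.4 FPKM in MCF-10A (log2 fold change -6.20). MMP28 had 0 reads in SK-BR-3 and averaged 34.6 ± 4.08 FPKM in MCF-10A. The inhibitor TIMP3 averaged 0.17 ± 0.151 FPKM in SK-BR-3 against 45.4 ± 4.34 in MCF-10A. PLAU (urokinase) fell, with wide spreads, at 7.09, 10.6 and 16.1 FPKM in SK-BR-3, against 33.2, 46.2 and 98.9 in MCF-10A (log2 fold change -2.22, SE 0.42, adjusted p = 0.00216). MMP13, a collagenase, rose, at 5.45 ± 0.932 FPKM in SK-BR-3 against 0.0133 ± 0.0231 in MCF-10A. TIMP2 and the lysosomal protease CTSD rose too, TIMP2 at 72.8 ± 9.33 FPKM in SK-BR-3 against 22.7 ± 2.23 in MCF-10A and CTSD at 333 ± 69.1 FPKM in SK-BR-3 against 64.5 ± 12.7 in MCF-10A.

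Few of the glycolysis and lactate genes were called. Of 25 tested glycolysis and lactate genes, 1 rose and 3 fell, beside 15.2% higher and 14% lower of all tested genes. The counts were 3 higher without the libraries that stood apart, and 5 lower with edgeR, with DESeq2 and with a pseudocount of 0.1 FPKM. GAPDH, ENO1, LDHA and the glucose transporter SLC2A1 were not called. The difference that stood out was SLC16A1, the lactate transporter MCT1, at 1.98, 1.18 and 0.801 FPKM in SK-BR-3, against 53.2, 55.9 and 49.2 in MCF-10A (log2 fold change -4.56, SE 0.18, adjusted p = 5.81e-07). LDHA, the lactate dehydrogenase, averaged 199 ± 39 FPKM in SK-BR-3 against 296 ± 31.6 in MCF-10A. The other lactate transporter, SLC16A3, averaged 41.9 ± 5.82 FPKM in SK-BR-3 against 55.1 ± 4.76 in MCF-10A and was not called. The aldolase ALDOC rose, at 18.2 ± 3.16 FPKM in SK-BR-3 against 2.85 ± 0.42 in MCF-10A. PGAM1, a phosphoglycerate mutase, and PFKP, a phosphofructokinase, fell. PGAM1 measured 38.1, 57.1 and 58.5 FPKM in SK-BR-3, against 134, 128 and 146 in MCF-10A, and PFKP averaged 36.6 ± 1.85 FPKM in SK-BR-3 against 85.7 ± 11.2 in MCF-10A.

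Of 20 tested pentose phosphate and NADPH genes, 5 rose and 3 fell, beside 15.2% and 14% of all tested genes. IDH2, the NADPH-producing isocitrate dehydrogenase of mitochondria, measured 103, 122 and 120.1 FPKM in SK-BR-3, against 11.6, 11.9 and 11.1 in MCF-10A (log2 fold change 3.20). NNT, the transhydrogenase that makes NADPH in the inner mitochondrial membrane, went the other way, at 0.186, 0.296 and 0.299 FPKM in SK-BR-3, against 10.1, 9.96 and 8.25 in MCF-10A (log2 fold change -3.05). ALDH1L2, a mitochondrial folate enzyme that also yields NADPH, fell too, at 1.06, 0.581 and 0.537 FPKM in SK-BR-3, against 16.7, 15.9 and 9.71 in MCF-10A. ME1, the cytosolic malic enzyme, was not called, at 14.6 ± 0.29 FPKM in SK-BR-3 against 13.9 ± 0.338 in MCF-10A. TKT and TALDO1, of the non-oxidative branch, rose by little more than 2-fold, with log2 fold changes of 1.05 and 1.02.

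Of 26 tested fatty acid and lipid genes, 8 rose and 8 fell. FASN, the fatty acid synthase known to be high in HER2-positive cells, measured 209, 239.7 and 253 FPKM in SK-BR-3, against 75.8, 72.8 and 43.6 in MCF-10A (log2 fold change 1.89, SE 0.21, adjusted p = 0.000135). ACLY, which supplies its acetyl-CoA, averaged 111 ± 2.64 FPKM in SK-BR-3 against 54.8 ± 4.46 in MCF-10A. The desaturases fell. SCD measured 18, 30.2 and 31.2 FPKM in SK-BR-3, against 114, 96.8 and 38.9 in MCF-10A, and SCD5 averaged 0.00996 ± 0.00865 FPKM in SK-BR-3 against 26.2 ± 4.77 in MCF-10A. FADS1 measured 0.0586, 0.0358 and 0.0422 FPKM in SK-BR-3, against 4.49, 4.34 and 2.99 in MCF-10A. FADS2 measured 0, 0.0111 and 0 FPKM in SK-BR-3, against 5.39, 4.49 and 2.86 in MCF-10A. Within MCF-10A, library 3 was the lowest for FASN and SCD. ACSL4, which activates polyunsaturated fatty acids, measured 0.166, 0.0951 and 0.173 FPKM in SK-BR-3, against 15.1, 14.6 and 14.6 in MCF-10A (log2 fold change -3.78). FABP5, a fatty acid carrier of skin, averaged 1.87 ± 0.135 FPKM in SK-BR-3 against 37.1 ± 2.84 in MCF-10A. ACACA, the carboxylase before FASN in the pathway, fell, at 3.35, 2.91 and 3.02 FPKM in SK-BR-3, against 13.2, 13.4 and 8.31 in MCF-10A.

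In cholesterol synthesis, 19 of 22 tested genes were not called, and TM7SF2 and SQLE rose. TM7SF2 averaged 11.4 ± 1.75 FPKM in SK-BR-3 against 1.54 ± 0.183 in MCF-10A, and SQLE 63.2 ± 0.841 FPKM in SK-BR-3 against 23.5 ± 2.24 in MCF-10A. Of 27 tested nuclear genes of the respiratory complexes, 3 rose and none fell; without the libraries that stood apart 6 rose. NDUFB9, a complex I subunit on chromosome 8, measured 192, 294 and 272 FPKM in SK-BR-3, against 27.7, 25.6 and 33.1 in MCF-10A. NDUFA4 averaged 120.4 ± 22.5 FPKM in SK-BR-3 against 40.9 ± 3.95 in MCF-10A, and UQCRH, of complex III, 294 ± 46.4 FPKM in SK-BR-3 against 139 ± 9.49 in MCF-10A. The share of mitochondrial transcripts was also higher in SK-BR-3, as given above, and its part in this was not tested. In amino acid metabolism 3 of 27 tested rose and 7 fell, and 5 rose without the libraries that stood apart. The transporter SLC7A5 averaged 160.1 ± 19.3 FPKM in SK-BR-3 and 964 ± 97.1 FPKM in MCF-10A. Another amino acid transporter, SLC38A2, averaged 18.9 ± 1.35 FPKM in SK-BR-3 against 94.1 ± 9.06 in MCF-10A. The creatine kinase CKB rose, at 32.2 ± 7.59 FPKM in SK-BR-3 against 2.78 ± 0.652 in MCF-10A.

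Stress capacity at baseline was examined through NRF2 and its targets, glutathione, thioredoxin and related systems. NRF2 is a transcription factor held down by KEAP1 in unstressed cells; when released it induces enzymes that make glutathione, regenerate thioredoxin and detoxify electrophiles. Of 31 NRF2 pathway genes, all tested, 5 rose and 9 fell, beside 15.2% higher and 14% lower of all tested genes, with a median log2 fold change of -0.15; 3 rose under quantile normalization. NFE2L2, the gene of NRF2, averaged 8.66 ± 0.333 FPKM in SK-BR-3 against 16.6 ± 1.41 in MCF-10A and KEAP1 averaged 15 ± 1.41 FPKM in SK-BR-3 against 18.4 ± 0.813 in MCF-10A, neither called. TXNRD1, thioredoxin reductase, measured 142, 111 and 105 FPKM in SK-BR-3, against 22.2, 19.8 and 19.8 in MCF-10A (log2 fold change 2.47, SE 0.13, adjusted p = 2.53e-06). HMOX1, heme oxygenase, measured 17, 13.9 and 11.6 FPKM in SK-BR-3, against 1.2, 2.48 and 3.58 in MCF-10A (log2 fold change 2.20). NQO1 was higher in every SK-BR-3 library and not 2-fold apart, at 94.2, 89 and 86.4 FPKM in SK-BR-3, against 64.1, 64.1 and 64.2 in MCF-10A.

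The NRF2 targets that fell included 4 aldo-keto reductases, which reduce carbonyls and steroids. AKR1B1 averaged 0.211 ± 0.134 FPKM in SK-BR-3 and 51.8 ± 8.51 FPKM in MCF-10A. AKR1C1 averaged 0.0982 ± 0.0275 FPKM in SK-BR-3 against 13 ± 1.93 in MCF-10A. AKR1C2 averaged 0.00945 ± 0.0164 FPKM in SK-BR-3 against 10.7 ± 1.05 in MCF-10A, and AKR1C3 0.00898 ± 0.0156 FPKM in SK-BR-3 against 11.6 ± 0.363 in MCF-10A. The AKR1C genes are close copies of each other, so that their single values are uncertain. SLC7A11, the cystine importer, averaged 0.448 ± 0.176 FPKM in SK-BR-3 against 5.08 ± 1.05 in MCF-10A, lower in SK-BR-3. Of the ferritin chains, which store iron, FTL averaged 215 ± 30.3 FPKM in SK-BR-3 against 561 ± 34.3 in MCF-10A and FTH1 166 ± 18.7 FPKM in SK-BR-3 against 562 ± 93.1 in MCF-10A, both lower.

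**Figure D5:**
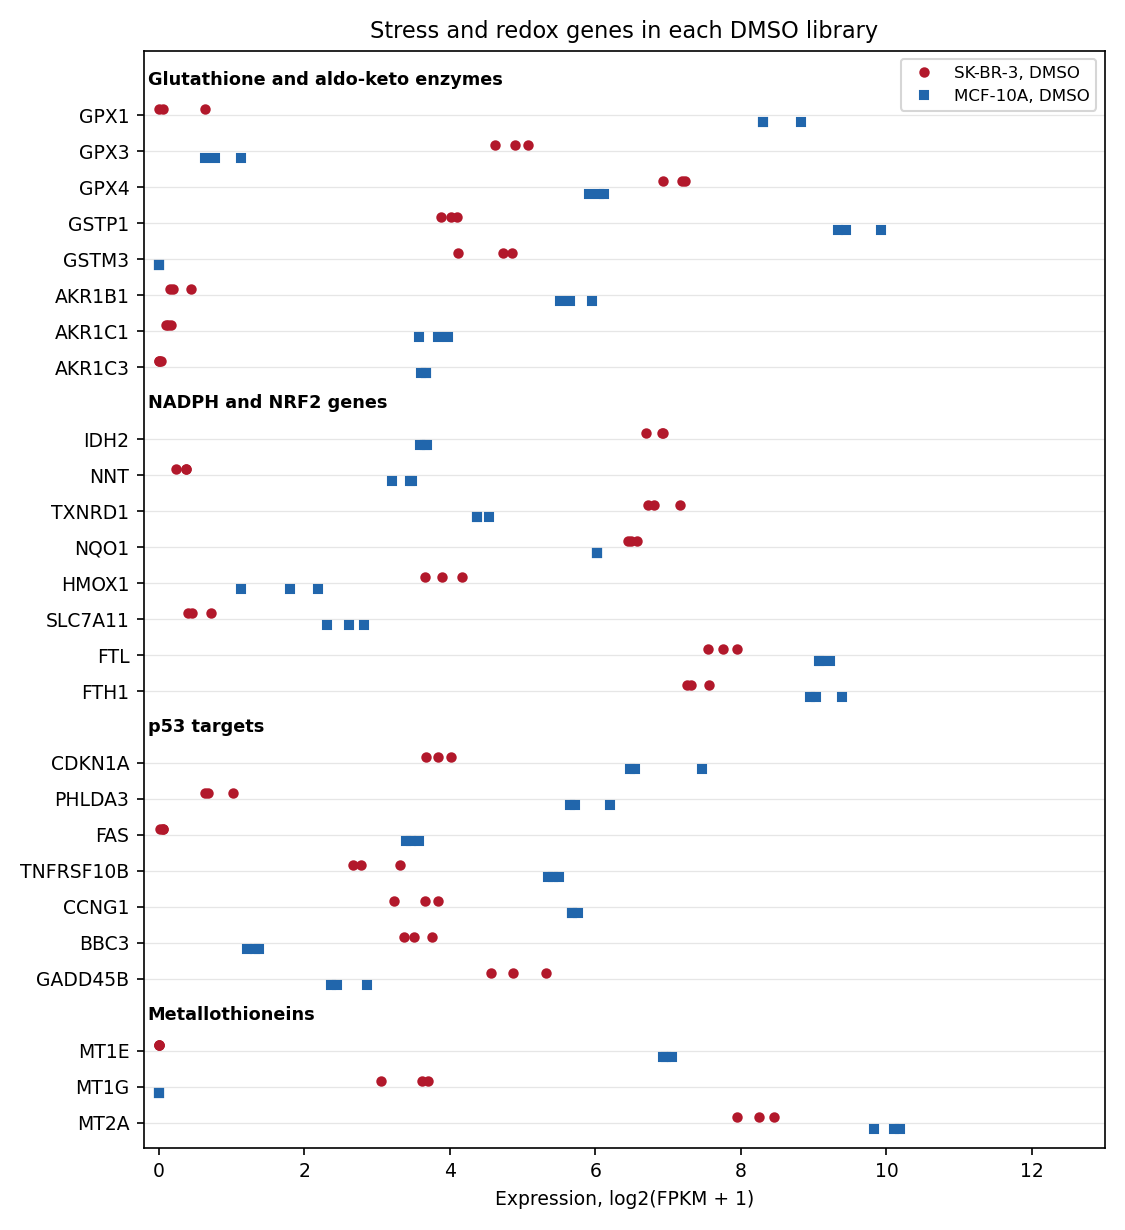
Level of redox, p53 and metallothionein genes as log2(FPKM + 1) on the horizontal axis, 1 symbol per library, with SK-BR-3 (circles) above MCF-10A (squares) in each row. GPX1, GSTP1 and MT1E are lower in all 3 SK-BR-3 libraries than in any MCF-10A library, whereas IDH2 and TXNRD1 are higher in SK-BR-3.

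Glutathione enzymes and transferases changed in both directions. Of 24 tested of 28 listed, 8 rose and 6 fell. GPX1, the cytosolic glutathione peroxidase that removes hydrogen peroxide, measured 0.559, 0.0427 and 0 FPKM in SK-BR-3, against 316, 314 and 452 in MCF-10A (log2 fold change -8.24, SE 0.21, adjusted p = 9.65e-08). These came from 13 reads in SK-BR-3 and 28383 in MCF-10A. SK-BR-3 library 1 was the highest of its line. GPX1 is annotated as a polymorphic pseudogene in the gene models used. Its neighbours on chromosome 3 had reads in both lines and were chosen after their values were seen. RHOA averaged 152 ± 19.9 FPKM in SK-BR-3 against 201 ± 19.9 in MCF-10A. USP4 averaged 4.05 ± 0.321 FPKM in SK-BR-3 against 6.26 ± 0.67 in MCF-10A, and TCTA 12 ± 2.4 FPKM in SK-BR-3 against 4.3 ± 0.369 in MCF-10A. GSTP1, the pi-class glutathione transferase often lost in cancer, measured 13.8, 16.2 and 15.2 FPKM in SK-BR-3, against 695, 645 and 972 in MCF-10A (log2 fold change -5.57, SE 0.16, adjusted p = 1.62e-07).

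Other members rose in SK-BR-3. GSTM3, a mu-class transferase, measured 16.3, 25.7 and 28.1 FPKM in SK-BR-3, against 0 FPKM in all 3 libraries of MCF-10A, at least 2058-fold higher. GPX3, the secreted peroxidase, averaged 28.3 ± 4.57 FPKM in SK-BR-3 and 0.826 ± 0.337 FPKM in MCF-10A. GPX4, which reduces lipid peroxides and guards against ferroptosis, averaged 139 ± 15.7 FPKM in SK-BR-3 against 64.6 ± 4.73 in MCF-10A (log2 fold change 1.09). The enzymes of glutathione synthesis were not called. GCLC, the catalytic subunit of the first step, measured 5.8, 5.62 and 6.23 FPKM in SK-BR-3, against 14.2, 13.6 and 9.46 in MCF-10A. Its modifier GCLM averaged 12.1 ± 0.8 FPKM in SK-BR-3 against 8.81 ± 0.5 in MCF-10A, and GSS, which completes the synthesis, 15.5 ± 1.99 FPKM in SK-BR-3 against 12.7 ± 1.65 in MCF-10A. GSTT2B had 1 read in SK-BR-3 and averaged 16.6 ± 1.1 FPKM in MCF-10A; it lies in a region that varies in copy number between people.

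The promoter windows of GPX1 and GSTP1, the glutathione enzymes with the largest falls on the log2(FPKM + 1) scale, are shown beside that of IL1B, an inflammatory cytokine gene with no read in SK-BR-3; the choice was made after their values were seen. They come from RefSeq on GRCh38.p14, run from 250 bases before to 50 bases after the annotated start, and carry capitals at each CpG, the pair of bases at which DNA can be methylated.
GPX1, chr3:49358304-49358603, minus strand: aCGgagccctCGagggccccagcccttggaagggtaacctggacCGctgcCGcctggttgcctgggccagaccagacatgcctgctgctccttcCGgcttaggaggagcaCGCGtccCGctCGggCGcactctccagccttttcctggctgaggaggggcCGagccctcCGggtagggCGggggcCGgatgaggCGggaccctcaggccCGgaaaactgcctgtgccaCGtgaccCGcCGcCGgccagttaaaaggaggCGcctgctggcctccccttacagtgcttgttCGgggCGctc
GSTP1, chr11:67583562-67583861, plus strand: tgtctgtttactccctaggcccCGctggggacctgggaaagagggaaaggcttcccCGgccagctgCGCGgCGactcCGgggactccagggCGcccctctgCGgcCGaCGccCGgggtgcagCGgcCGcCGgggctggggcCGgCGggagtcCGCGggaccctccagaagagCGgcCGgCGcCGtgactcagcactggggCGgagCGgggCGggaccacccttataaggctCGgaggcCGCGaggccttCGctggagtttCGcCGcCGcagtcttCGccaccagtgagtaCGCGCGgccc
IL1B, chr2:112836730-112837029, minus strand: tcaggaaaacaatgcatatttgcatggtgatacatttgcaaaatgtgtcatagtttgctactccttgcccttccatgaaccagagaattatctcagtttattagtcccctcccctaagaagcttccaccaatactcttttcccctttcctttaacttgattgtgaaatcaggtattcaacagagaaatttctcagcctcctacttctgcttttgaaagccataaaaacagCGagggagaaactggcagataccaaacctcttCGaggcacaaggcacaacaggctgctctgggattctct
The windows of GPX1 and GSTP1 held 23 and 36 CpG, with ratios of observed to expected CpG of 0.63 and 0.88, and that of IL1B held 2, with a ratio of 0.15. Of the 8691 windows found for the tested protein-coding genes, 85.1% had a ratio of at least 0.6. CpG count is a property of the sequence alone; methylation was not measured.

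Of 21 tested thioredoxin, peroxiredoxin and superoxide genes of 22 listed, 1 rose and 2 fell. PRDX1, the main cytosolic peroxiredoxin, averaged 503 ± 43.8 FPKM in SK-BR-3 against 288 ± 23.7 in MCF-10A (log2 fold change 0.80). Catalase (CAT) averaged 21.3 ± 1.12 FPKM in SK-BR-3 against 11.3 ± 0.737 in MCF-10A (log2 fold change 0.86). Neither was 2-fold apart. The members that fell were the methionine sulfoxide reductases MSRA, at 0.496, 0.499 and 0.341 FPKM in SK-BR-3, against 2.74, 2.71 and 3.95 in MCF-10A, and MSRB3, at 0.685 ± 0.137 FPKM in SK-BR-3 against 3.78 ± 0.57 in MCF-10A.

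Genes of hydrogen sulfide and sulfur amino acid metabolism, which handle the products of sulfur compounds such as DATS, gave 5 rises and 3 falls of 16 tested. SELENBP1, a methanethiol oxidase, measured 61.8, 75.4 and 82.7 FPKM in SK-BR-3, against 5.76, 4.2 and 2.67 in MCF-10A (log2 fold change 3.87). TSTD1, a thiosulfate sulfurtransferase, measured 78, 106 and 109.5 FPKM in SK-BR-3, against 4.59, 3.39 and 5.37 in MCF-10A (log2 fold change 4.18). SQOR, the mitochondrial sulfide oxidase, fell, at 5.32 ± 1.06 FPKM in SK-BR-3 against 14.6 ± 3.78 in MCF-10A. Of the enzymes that make hydrogen sulfide, CTH and MPST were not called. CTH averaged 2.15 ± 0.115 FPKM in SK-BR-3 against 1.11 ± 0.288 in MCF-10A, and MPST 7.42 ± 0.458 FPKM in SK-BR-3 against 10.2 ± 0.709 in MCF-10A. CBS was below the testing threshold in both lines.

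Metallothioneins, small metal-binding proteins, differed by isoform. MT1E measured 0 FPKM in all 3 libraries of SK-BR-3, against 125, 132 and 120.5 in MCF-10A, at least 2104-fold lower. MT1G measured 11.3, 12 and 7.32 FPKM in SK-BR-3, against 0 FPKM in all 3 libraries of MCF-10A, at least 141-fold higher. MT2A, the most abundant, averaged 299.8 ± 52.7 FPKM in SK-BR-3 and 1057 ± 129 FPKM in MCF-10A (log2 fold change -1.82). Of 9 tested metallothionein and zinc transport genes, 2 rose and 4 fell; the isoforms are similar in sequence, and reads may have been divided between them.

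Most of the listed genes induced by p53 were lower in SK-BR-3. Of 31 tested of 33 listed, 20 fell and 2 rose, beside 14% and 15.2% of all tested genes, with a median log2 fold change of -1.54. Of the members, 24 reached 1 FPKM in all 6 libraries, and without the libraries that stood apart 21 fell and 2 rose. PHLDA3, an inhibitor of AKT, measured 1.04, 0.564 and 0.609 FPKM in SK-BR-3, against 51.8, 49.5 and 73 in MCF-10A (log2 fold change -5.08, SE 0.17, adjusted p = 3.09e-07). FAS, a death receptor, averaged 0.0348 ± 0.0177 FPKM in SK-BR-3 and 10.2 ± 0.688 FPKM in MCF-10A. CCNG1 (cyclin G1) averaged 11.2 ± 2.51 FPKM in SK-BR-3 and 51.4 ± 1.68 FPKM in MCF-10A. MDM2, the ubiquitin ligase of p53, averaged 3.71 ± 0.0753 FPKM in SK-BR-3 and 10.2 ± 0.267 FPKM in MCF-10A. The BH3-only gene BBC3 (PUMA) rose, at 12.5, 10.4 and 9.39 FPKM in SK-BR-3, against 1.32, 1.59 and 1.5 in MCF-10A, and so did GADD45B, at 28.3, 38.9 and 22.8 FPKM in SK-BR-3, against 4.46, 4.19 and 6.28 in MCF-10A. Several of the listed genes, FAS and CDKN1A among them, respond to other regulators as well.

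Of 25 tested genes of the BCL2 family and death receptors, 19 were not called. BMF, a BH3-only sensor of detachment, rose along with BBC3, at 13.4, 7.93 and 9.74 FPKM in SK-BR-3, against 0.333, 0.121 and 0.113 in MCF-10A (log2 fold change 3.23). FAS, TNFRSF10B, CASP1 and PMAIP1 fell. TNFRSF10B, a TRAIL receptor, measured 9, 5.36 and 5.86 FPKM in SK-BR-3, against 39.98, 41.8 and 44.2 in MCF-10A. The inflammatory caspase CASP1 averaged 0.157 ± 0.129 FPKM in SK-BR-3 against 10.6 ± 0.525 in MCF-10A, and PMAIP1 (NOXA) 0.922 ± 0.344 FPKM in SK-BR-3 against 8.65 ± 1.69 in MCF-10A. MCL1 and BCL2L1, the survival proteins, were not called.

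Heat shock proteins had few calls: 22 of 24 tested were not called, none rose, and HSPA4 and DNAJB4 fell. HSPA4, an HSP110-family protein, averaged 23.7 ± 0.891 FPKM in SK-BR-3 against 74.3 ± 1.07 in MCF-10A, and DNAJB4, a co-chaperone, 3.21 ± 0.778 FPKM in SK-BR-3 against 8.24 ± 0.462 in MCF-10A. HSPA1A, the inducible HSP70 with a near-identical copy in HSPA1B, averaged 58.7 ± 0.937 FPKM in SK-BR-3 against 54.6 ± 7.39 in MCF-10A. The small heat shock protein HSPB1 measured 1032, 1133 and 1032 FPKM in SK-BR-3, against 864, 688 and 1228 in MCF-10A. Of 29 tested genes of endoplasmic reticulum folding and the unfolded protein response, 8 rose and 1 fell. XBP1, its transcription factor, averaged 116 ± 13.6 FPKM in SK-BR-3 and 26.3 ± 3.47 FPKM in MCF-10A (log2 fold change 2.10). HERPUD1, of the degradation machinery, averaged 38.1 ± 8.02 FPKM in SK-BR-3 and 6.66 ± 0.71 FPKM in MCF-10A. TRIB3 averaged 63.5 ± 7.4 FPKM in SK-BR-3 against 15.1 ± 1.46 in MCF-10A, and ATF3 23.9 ± 8.9 FPKM in SK-BR-3 against 3.1 ± 1.09 in MCF-10A. The chaperone HSPA5 (BiP) was not called, at 141 ± 13.5 FPKM in SK-BR-3 against 142 ± 6.04 in MCF-10A. SESN2, a sestrin, fell, at 2.51 ± 0.261 FPKM in SK-BR-3 against 9.15 ± 0.137 in MCF-10A.

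Among drug transporters and enzymes, 8 of 21 tested rose and 5 fell. ABCB1, the classical multidrug pump, was below the testing threshold, with 4 reads in SK-BR-3 and 0 in MCF-10A. ABCC3 fell, at 2.68, 1.64 and 1.57 FPKM in SK-BR-3, against 9.94, 12.2 and 11 in MCF-10A. The aldehyde dehydrogenase ALDH3A1 fell, at 0.017, 0 and 0.0157 FPKM in SK-BR-3, against 20.4, 13.6 and 6.4 in MCF-10A, with a wide spread in MCF-10A. Its relative ALDH3B2 rose, at 14 ± 1.3 FPKM in SK-BR-3 against 0.147 ± 0.0423 in MCF-10A.

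Interferon and antigen presentation genes gave 6 rises and 6 falls of 22 tested. The class I heavy chains are polymorphic, so that their reads may map unequally. HLA-C measured 15, 14.4 and 14.8 FPKM in SK-BR-3, against 95.1, 89.1 and 137 in MCF-10A. The peptide transporter TAP1 rose, at 36.1 ± 7.34 FPKM in SK-BR-3 against 7.64 ± 1.1 in MCF-10A, and B2M was not called. Inflammatory and chemokine genes were mostly lower, with 13 of 25 tested lower and 3 higher. IL1B measured 0 FPKM in all 3 libraries of SK-BR-3, against 28.8, 45.6 and 81 in MCF-10A. IL1A had 1 read in SK-BR-3 and measured 44.2, 60.4 and 80.2 FPKM in MCF-10A. CXCL1 measured 0.308, 0.188 and 0.143 FPKM in SK-BR-3, against 51.1, 69 and 132 in MCF-10A. Complement C3 averaged 0.0965 ± 0.0207 FPKM in SK-BR-3 and 87.8 ± 15.9 FPKM in MCF-10A. The MCF-10A libraries differed among themselves for IL1B and CXCL1, and all 3 were above SK-BR-3. The chemokines CCL2 and CCL5 rose, CCL2 at 15.8 ± 1.38 FPKM in SK-BR-3 against 0.0275 ± 0.0286 in MCF-10A and CCL5 at 3.19 ± 0.491 FPKM in SK-BR-3 against 0.438 ± 0.455 in MCF-10A. LCN2, an iron-binding lipocalin, rose too, at 24.3, 18.3 and 12 FPKM in SK-BR-3, against 0.355, 0.317 and 5.29 in MCF-10A, with MCF-10A library 3 apart.

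Of 25 proliferation genes, 24 were not called and 1 fell, MCM2 at 8.53, 6.11 and 7.65 FPKM in SK-BR-3, against 23.4, 22.6 and 15.1 in MCF-10A. In this list 4 fell without the libraries that stood apart, and 7 under quantile normalization. By an adjusted p under 0.05 alone, 17 were lower and 4 higher, beside 34.6% and 35.8% of all tested genes. The median log2 fold change of the list was -0.58. MKI67 measured 10.5, 10.7 and 11.2 FPKM in SK-BR-3, against 25.5, 25.4 and 16.8 in MCF-10A (log2 fold change -0.97). CCNB1 averaged 53.9 ± 9.29 FPKM in SK-BR-3 against 103 ± 2.7 in MCF-10A (log2 fold change -0.93), just short of 2-fold.

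Markers of cell types that the cultures should not hold were for the most part below the testing threshold. Of 10 fibroblast markers, 2 were tested, and both fell. COL1A1 measured 2.22, 1.57 and 1.55 FPKM in SK-BR-3, against 5.04, 4.91 and 8.15 in MCF-10A. FAP measured 0, 0.0174 and 0.0264 FPKM in SK-BR-3, against 1.42, 1.85 and 3.3 in MCF-10A. COL1A2 had 2 reads in SK-BR-3 and 1 in MCF-10A. Of 8 endothelial markers, only CDH5 was tested, at the values above, while PECAM1 had 2 reads in SK-BR-3 and 46 in MCF-10A. Of 10 leukocyte markers, 2 were tested. CSF1R rose, at 31.4, 14.7 and 11 FPKM in SK-BR-3, against 1.78, 1.52 and 1.64 in MCF-10A, with SK-BR-3 library 1 above the others of its line. CD14 fell, at 0.0994 ± 0.0294 FPKM in SK-BR-3 against 4.5 ± 0.43 in MCF-10A. PTPRC, the leukocyte common antigen, had 3 reads in SK-BR-3 and 1 in MCF-10A. Of 14 housekeeping genes, PPIA, GUSB, TFRC and EIF4A2 rose and YWHAZ fell, while ACTB and TBP were among those not called. PPIA averaged 840.5 ± 154 FPKM in SK-BR-3 against 309 ± 28.7 in MCF-10A, and YWHAZ 96.7 ± 11.9 FPKM in SK-BR-3 against 225 ± 24.5 in MCF-10A.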

How the data were processed

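Total RNA was sequenced, and reads were aligned with STAR 2.6.1d to GRCh38, per the submitters' processing notes. The authors deposited FPKM values for 12 libraries and read counts for part of the genes. The library size that the FPKM values imply was not the number of reads in genes. Its ratio to that number was 0.930 to 0.982 in the SK-BR-3 DMSO libraries and 0.991 to 1.07 in the MCF-10A DMSO libraries. The deposited FPKM steps gave whole reads for 704820 of 704820 values within 1e-06 of a whole number, and these equalled the deposited counts for all 45252 compared. Counting strand is not given in the sources used here. Values were tested as log2(FPKM + 1) with limma 3.58.1 (R 4.3.3, trended empirical Bayes, two-sided), with Benjamini-Hochberg adjustment over 12366 genes; errors are SD over 3 libraries. Count tests on recovered reads (edgeR 4.0.16, DESeq2 1.42.0) and other settings were alternatives. A sequence comparison of promoters over the genes at the floor was void, since windows were found for only 37 of 56, 40 of 56 and 8691 of 10886 genes. The test was run on simulated counts with few changed genes and no library that stood apart, unlike these data. That run checks the computation only. Members and lists were chosen with earlier results of these data known. Genes named are the 4 members of a list with the largest changes, a panel of known genes and floor genes; others were chosen after their values were seen, and some listed genes are not reported here. P-values measure the spread between separately prepared samples of 1 line each.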

Additional observations from a re-analysis of the deposited data

How the results depend on the processing

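The counts of 1884 higher and 1733 lower genes were 1851 to 1959 and 1704 to 1769 when 1 library was left out, and those at an adjusted p under 0.05 alone were 3975 to 4508 and 3829 to 4292. With genes of at least 5 FPKM the lower counts were 1019 at 2-fold and 2508 by p alone. edgeR on recovered reads called 2279 higher and 2305 lower, and DESeq2 2281 and 2268. At 20 FPKM the genes at the floor were 18 in SK-BR-3 and 23 in MCF-10A. Correlations of same-numbered deviations were 0.112, -0.246 and 0.0414, and those of differently numbered ones ran from -0.216 to 0.253. Deviations from a mean of 3 libraries, with 1 library apart in each line, cannot decide whether same-numbered samples were prepared together. With the replicate number as a block 1885 were higher and 1735 lower.

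Signs turned for genes that were not called: MYC was -0.21 to 0.10 on the log2 scale when 1 library was left out, the positive value without SK-BR-3 library 3, and in the DATS libraries MKI67 was 0.14, CCNB1 0.62 and the log2 fold change of GATA3 -0.013; the cause was not tested. The filter at 5 FPKM also lowered these list counts by over 1.5 times: higher calls to 3 of luminal surface, 0 of basal and myoepithelial, 2 of receptor kinase, 5 of fatty acid and 4 of multidrug genes, and lower calls to 8 of cornified envelope, 3 of nuclear oncogene, 4 of tumour suppressor, 4 of cadherin, 0 of thioredoxin, 3 of multidrug, 3 of interferon and 0 of fibroblast genes. edgeR, DESeq2 and a pseudocount of 0.1 FPKM each gave 5 lower glycolysis, 3 lower cholesterol and 3 lower proliferation genes, and that pseudocount 5 higher cornified envelope genes. Quantile normalization gave 3 higher NADPH, 3 higher NRF2 and 7 lower proliferation genes.

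Leaving out 1 library lost UQCRH and DNAJB4 among the genes named, both near 2-fold. Each side is 1 line, so differences cannot be assigned to tumour state, and levels of RNA do not tell deletion from silencing. Depth limits statements on genes under a few reads, which were not detectable here rather than absent; that covers counting error only.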

Other observations

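The 13 protein-coding genes of the mitochondrial genome did not move as 1 block. MT-ND4 was called higher in SK-BR-3 (log2 fold change 1.04, SE 0.14, adjusted p = 0.000399), and the other 12 were not called. MT-CO3 differed in the opposite direction from MT-ND4, at 2710, 4114 and 3684 FPKM in SK-BR-3, against 5403, 5495 and 6864 in MCF-10A (log2 fold change -0.77, SE 0.20, adjusted p = 0.0108).

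Noncoding genes also stood at the floor. DSCAM-AS1, a long noncoding RNA of luminal breast cancer, measured 94.8, 135 and 85.6 FPKM in SK-BR-3, against 0 FPKM in all 3 libraries of MCF-10A; strand was not stated for the counting, so reads of an overlapping gene cannot be separated from it. MIR149, counted as a short gene, measured 105, 52.1 and 56.8 FPKM in SK-BR-3, against 0.637, 0 and 0 in MCF-10A, from 299 reads in SK-BR-3 and 1 read in MCF-10A. It lies within the span of the noncoding gene AC110619.1, so reads of that gene cannot be separated from it. AC110619.1 measured 52.7, 60.7 and 64.4 FPKM in SK-BR-3 and had 1 read in MCF-10A. Outside the lists, DHRS2, a short-chain dehydrogenase, rose, at 579.6, 699.6 and 657 FPKM in SK-BR-3, against 0.0825, 0.0603 and 0.126 in MCF-10A (log2 fold change 9.21, SE 0.09, adjusted p = 8.36e-09). SUSD2, a membrane glycoprotein, rose too, at 241, 319.9 and 313 FPKM in SK-BR-3, against 1.71, 1.2 and 1.1 in MCF-10A. Among the falls, TGFBI, a secreted adhesion protein induced by TGF-beta, measured 2.4, 2.51 and 2.31 FPKM in SK-BR-3, against 359, 369 and 567 in MCF-10A (log2 fold change -6.96).

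The libraries of the same lines under DATS, which share no library with the comparison, gave the same sign for 3598 of the 3617 calls and a call for 2946 of them. They differ from the DMSO libraries by the treatment.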
